A study of Mus musculus with 4 samples.

Results

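Cholangiocyte and progenitor markers are 10 genes (Krt7, Krt19, Krt8, Krt18, Krt23, Epcam, Sox9, Prom1, Cd24a and Spp1) that label the bile duct epithelium of liver or the duct-like cells that appear when it regenerates. They were followed here through all probe sets of a mouse expression array whose only annotated gene symbol was one of these names. That gave 16 probe sets for 9 of the 10 genes, out of 18193 genes named on the array. The platform annotation used here named no probe set for Spp1 (osteopontin), which was not analysed here.

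The samples were regenerating livers from BALB/c nu/nu mice, a nude strain without a thymus, that were given human bone marrow mesenchymal stem cells that expressed either OGFRL1 (2 arrays) or the fluorescent protein EGFP, the control (2 arrays). All mice in both groups had first received carbon tetrachloride, a liver toxin whose repeated use scars the organ, in 23 injections of 0.25 ml per kg body weight. They then received 1000000 cells into the spleen, lost part of the liver to hepatectomy on day 21, and gave liver tissue on day 8 after hepatectomy. The labels give no age or sex, leave unsaid whether each array is a separate mouse or a pool, and end with a fragment on albumin in saline that is not tied to a group. If the arrays of a group came from the same mouse or the same pool, the p-values measure technical spread only.

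Cholangiocytes line the bile ducts, and they carry the keratins Krt7 and Krt19 together with the keratins Krt8 and Krt18 that hepatocytes make as well. Keratins work in pairs, with a type I chain (Krt18, Krt19 or Krt23) polymerising with a type II chain (Krt8 or Krt7). After toxic injury that hepatocytes cannot repair on their own, ducts can expand in a ductular reaction, and the cells in it are recognised by Sox9, Epcam, Prom1 (CD133) and Cd24a. Because whole tissue was measured, a change in the number of such cells and a change in RNA per cell cannot be told apart.

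Values are MAS5 signals, the linear brightness summary of an Affymetrix probe set, and each array had a trimmed mean signal of 100.0 and a median of 11.6 to 12.5. Liver identity was plain in all arrays, with signals for Alb, serum albumin, of 7041 and 7930.4 on OGFRL1 arrays and 16107 and 9313 on EGFP arrays. The bright Cre spike-in controls were lower on OGFRL1 arrays by a mean of 0.43 on the log2 scale, written here as a log2 difference of -0.43, and the BioB, BioC and BioD controls had -0.32. The 3′ to 5′ signal ratio, a sign of RNA integrity, was 0.738 and 0.768 for Gapdh on OGFRL1 arrays and 0.787 and 0.734 on EGFP arrays. Its counterpart for Actb was 1.69 and 1.68 on OGFRL1 arrays and 1.57 and 1.94 on EGFP arrays.

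None of the markers passed the test in the comparison of OGFRL1 with EGFP livers. Prom1 and Cd24a had the largest differences, both with higher signals in OGFRL1 livers, while the duct keratins Krt7 and Krt19 and the markers Epcam and Sox9 had differences whose 95% intervals spanned 0, and those of Sox9 ran in opposite ways between probe sets. The keratin Krt18 was higher than in either EGFP liver, and its partner Krt8 was not. Of the 9 genes, 8 reached the minimum mean signal of 11.6 (the median over all probe sets) and were tested with limma on log2(signal + 3.51), each through its brightest probe set. The count past an adjusted p of 0.05 was 0 of 8 (limma, Benjamini-Hochberg over 11942 genes), beside 0.511% of all genes. At an unadjusted p under 0.05 it was 3 of 8, beside 15.3% of all genes. The median log2 fold change was 0.38 over the 8 markers and 0.042 over all genes, and 6 of the 8 were above 0, as were 55.6% of all genes. Krt7 was among the 6, and its EGFP mean, 10.5, was under the minimum signal.

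Promoter sequences are shown for Prom1, which had the largest difference of the markers, and for Krt18 and Krt8, adjoining protein-coding genes on chromosome 15 that encode partner keratins. They come from RefSeq (GRCm38.p6) and run 5′ to 3′ on the strand of the gene, from 250 bases before an annotated start to 50 after it. Capitals mark matches on either strand to TATAAA (the TATA box core), GGGCGG (the GC box), CCAAT (the CCAAT box) or TGANTCA (an AP-1-like site).
Prom1, chr5:44101687-44101986, minus strand: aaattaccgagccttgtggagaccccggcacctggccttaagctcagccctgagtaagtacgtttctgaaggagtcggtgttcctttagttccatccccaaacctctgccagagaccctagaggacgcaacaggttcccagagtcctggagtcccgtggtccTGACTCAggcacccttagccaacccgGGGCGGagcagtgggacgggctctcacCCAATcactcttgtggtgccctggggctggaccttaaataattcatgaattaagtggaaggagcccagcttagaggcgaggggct
Prom1, second annotated start, chr5:44094719-44095018, minus strand: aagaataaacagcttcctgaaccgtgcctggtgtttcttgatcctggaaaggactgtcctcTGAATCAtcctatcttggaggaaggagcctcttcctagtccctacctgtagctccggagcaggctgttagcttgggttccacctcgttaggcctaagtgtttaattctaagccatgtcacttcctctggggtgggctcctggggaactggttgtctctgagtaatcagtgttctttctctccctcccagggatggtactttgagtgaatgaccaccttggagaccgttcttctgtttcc
Krt18, chr15:102027966-102028265, plus strand: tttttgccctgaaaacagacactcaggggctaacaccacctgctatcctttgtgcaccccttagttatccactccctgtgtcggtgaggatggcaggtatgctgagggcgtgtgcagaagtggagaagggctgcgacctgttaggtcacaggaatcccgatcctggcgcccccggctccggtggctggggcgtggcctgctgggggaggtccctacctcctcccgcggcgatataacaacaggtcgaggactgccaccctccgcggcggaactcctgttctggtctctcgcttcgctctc
Krt8, chr15:102004293-102004592, minus strand: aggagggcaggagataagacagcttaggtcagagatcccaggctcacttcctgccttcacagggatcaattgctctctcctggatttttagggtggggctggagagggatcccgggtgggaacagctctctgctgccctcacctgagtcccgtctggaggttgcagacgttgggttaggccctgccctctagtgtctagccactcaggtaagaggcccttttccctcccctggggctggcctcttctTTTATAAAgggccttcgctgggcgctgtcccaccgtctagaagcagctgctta

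Counted from the 5′ end of each window, the first Prom1 promoter held an AP-1-like site at base 163, a GC box at base 189 and a CCAAT box at base 216. Its second promoter held an AP-1-like site at base 62. The Krt8 promoter held overlapping TATA matches at bases 248 and 250, on opposite strands, and the Krt18 promoter held none of these letters. Among all 32851 RefSeq promoter windows of 300 bases, 7.81% held the AP-1-like site, 35.7% the GC box, 37.4% the CCAAT box and 13.6% the TATA core. These matches describe the letters of the windows and are no evidence of binding. The windows differed in CpG count, with 10 and 4 in the Prom1 promoters, 17 in that of Krt18 and 6 in that of Krt8.

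**Figure D1:**
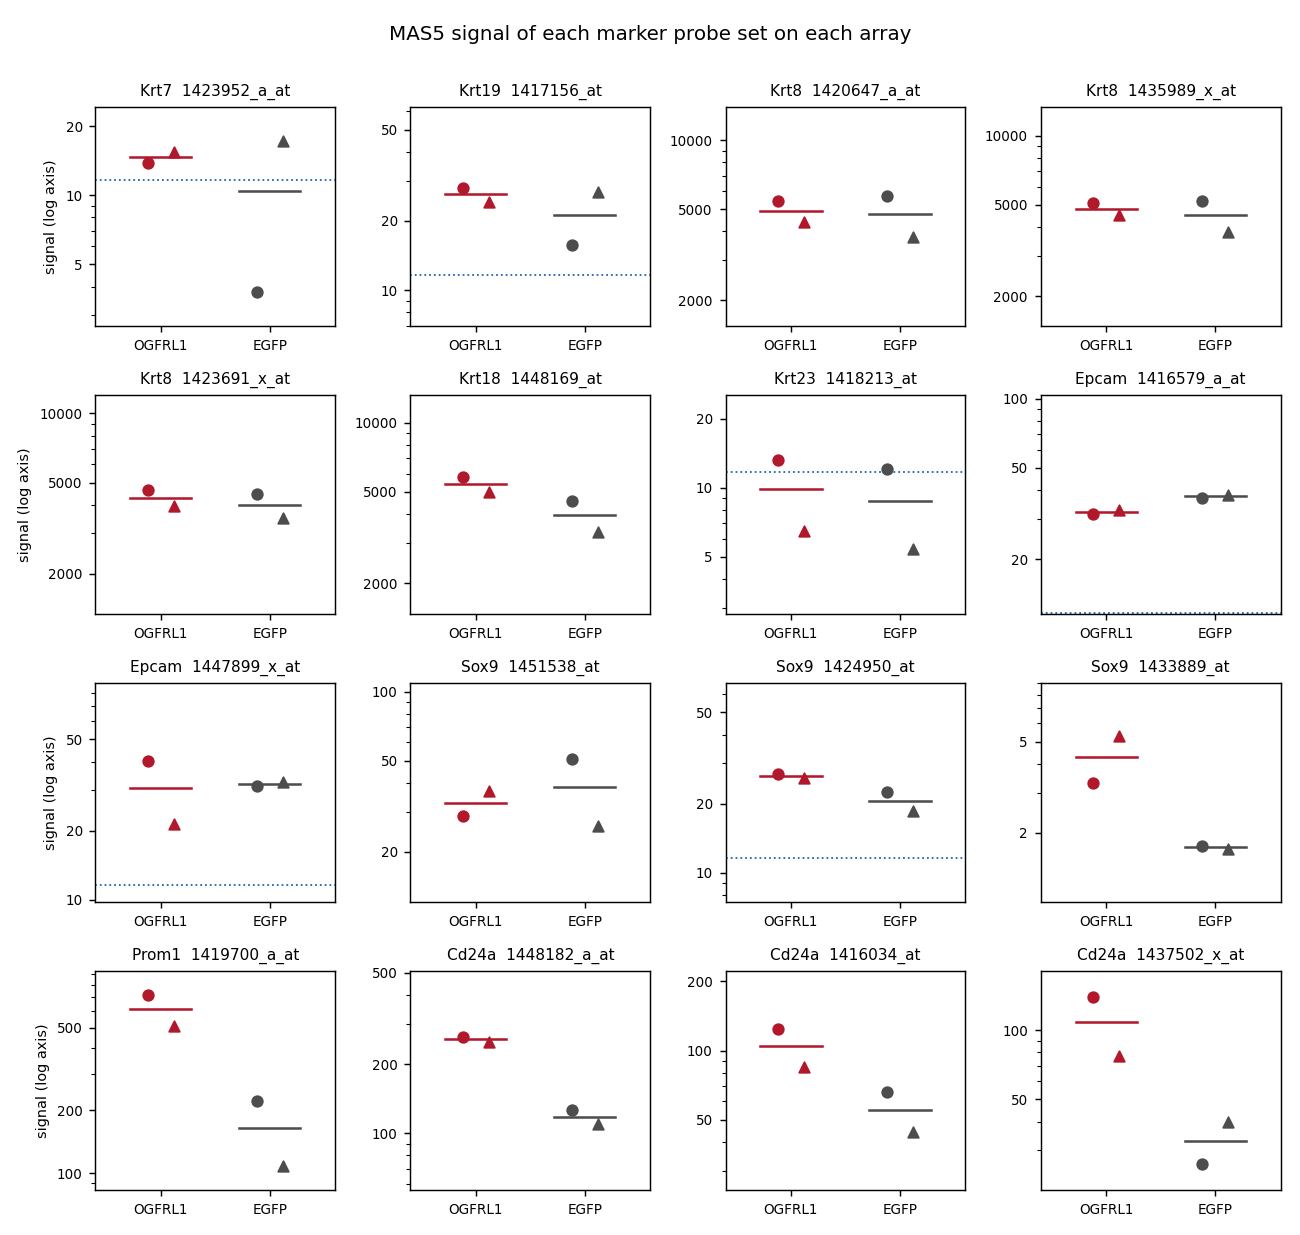
MAS5 signal (log axis) of the 16 probe sets on OGFRL1 arrays (red) and EGFP arrays (grey), with circles for array 1, triangles for array 2, bars for group means and, where it falls within a panel, a dotted line at the minimum mean signal of 11.6. Prom1, Krt18 and all 3 Cd24a probe sets have both OGFRL1 arrays above both EGFP arrays, while the EGFP arrays lie apart from each other in Krt7, from 3.80 to 17.1.

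Prom1 encodes prominin 1 (CD133), a membrane glycoprotein of apical surface protrusions that is used to sort liver progenitors. Its probe set had signals of 719.8 and 510.1 on OGFRL1 arrays and 223 and 108 on EGFP arrays. The groups did not overlap, but the EGFP arrays differed from each other by a ratio of 2.07. The mean was 615 ± 148 in OGFRL1 livers and 166 ± 81.4 in EGFP livers (SD, n = 2 each), or a log2 fold change of 1.94 ± 0.34 (SE; 95% interval 1.12 to 2.76). The adjusted p was 0.0692 (limma), so Prom1 missed the threshold, although it ranked 20 among the 11942 genes tested by log2 fold change.

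Cd24a encodes a small, heavily glycosylated surface protein tethered by a lipid anchor, found on liver progenitors and also on B cells, neutrophils and red cell precursors. Its brightest probe set, 1448182_a_at, had signals of 263 and 249 on OGFRL1 arrays and 126 and 109.7 on EGFP arrays. Replicates were close and the groups were well apart, with means of 256 ± 9.8 in OGFRL1 livers and 118 ± 11.5 in EGFP livers. The log2 fold change was 1.10 ± 0.15 (SE), with a 95% interval of 0.73 to 1.47 and a limma adjusted p of 0.0503.

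The 2 other Cd24a probe sets were dimmer and more variable, but they too did not overlap between the groups. Probe set 1416034_at had signals of 124 and 85.0 on OGFRL1 arrays and 66.1 and 44.3 on EGFP arrays, a log2 fold change of 0.88 ± 0.27 (SE). Probe set 1437502_x_at had 139 and 77.2 on OGFRL1 arrays and 26.2 and 39.7 on EGFP arrays, or 1.58 ± 0.32, and by its suffix may bind other transcripts as well. Fitted with all 20238 probe sets, none of the 3 passed (limma adjusted p of 0.0544, 0.224 and 0.103 from the brightest to the _x_at set). In that fit 0.336% of all probe sets passed.

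The call of Cd24a turned on the processing. Cd24a passed with median scaling (limma adjusted p = 0.047) and with 4 times the pseudocount (0.0474). With all 4 arrays, over the settings of normalization, pseudocount, filter, probe set and variance model, Prom1 had an adjusted p of 0.0654 to 0.182. Over the same settings Cd24a had 0.047 to 0.151. A block for the replicate number is described at the end. Counts past the threshold from fits with 1 array left out are listed only at the end. Such a fit does not measure the spread of that array's group, so only log2 fold changes are given here. Without EGFP 1 they were 2.45 for Prom1 and 1.20 for Cd24a, and without EGFP 2 they were 1.43 and 1.003. Those were the extremes over all settings. Without OGFRL1 1 they were 1.69 for Prom1 and 1.06 for Cd24a, and without OGFRL1 2 they were 2.19 and 1.14.

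**Figure D2:**
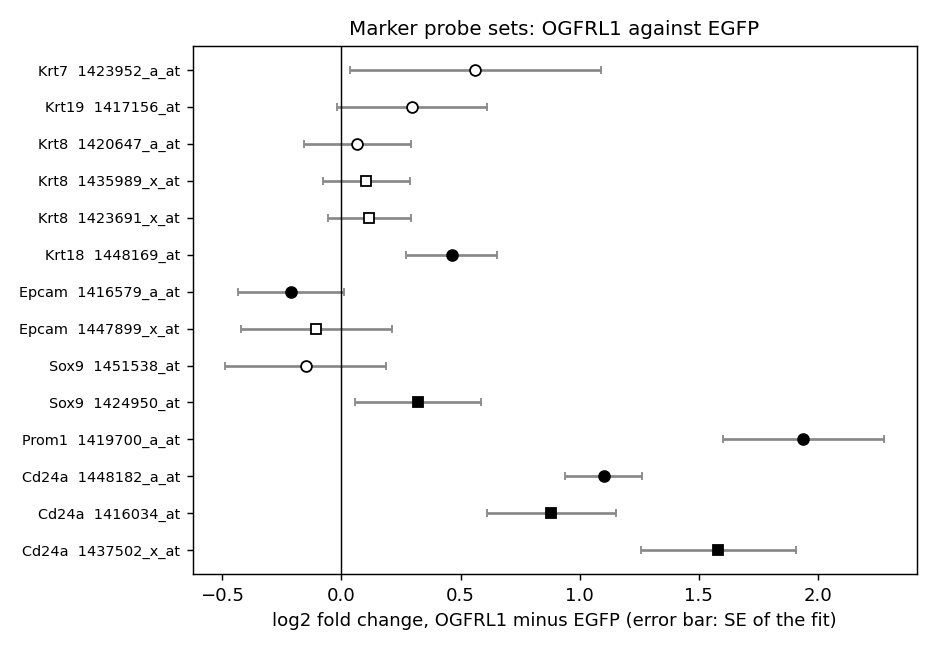
Log2 fold change, OGFRL1 minus EGFP, of the 14 probe sets above the minimum signal, with the standard error of the fit to all probe sets. Circles are the brightest probe set of a gene, squares the others, and filled symbols have groups that do not overlap. Prom1 at 1.94 and Cd24a at 0.88 to 1.58 lie apart from the keratins, Epcam and Sox9, which run from -0.21 to 0.56.

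The keratins of hepatocytes and ducts, Krt8 and Krt18, were bright on every array. Krt18 had signals of 5818 and 4966 on OGFRL1 arrays and 4564 and 3330.0 on EGFP arrays. Both OGFRL1 arrays were above both EGFP arrays, with means of 5392 ± 602 in OGFRL1 livers and 3947 ± 873 in EGFP livers. The log2 fold change was 0.46 ± 0.19 (SE, limma adjusted p = 0.325), with a 95% interval of 0.0022 to 0.92. Over the same settings with all 4 arrays, the limma adjusted p of Krt18 ran from 0.126 to 0.46. Its log2 fold change was 0.69 without EGFP 1, 0.24 without EGFP 2 and 0.76 after quantile normalization.

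Krt8, the type II partner of Krt18, showed no such separation in any of its 3 probe sets. Its brightest, 1420647_a_at, had signals of 5404 and 4376 on OGFRL1 arrays and 5718 and 3773 on EGFP arrays. The OGFRL1 values lay between the EGFP values, and the log2 fold change was 0.066 ± 0.23 (SE), with a 95% interval of -0.48 to 0.61. Probe sets 1435989_x_at and 1423691_x_at gave 0.10 ± 0.18 and 0.12 ± 0.17. Genes of like brightness, within 2-fold of the Krt8 signal, had a median of -0.30 (397 genes), and those around Krt18 also had -0.30 (413 genes). Quantile normalization raised Krt8 to 0.37, and it had -0.23 without EGFP 2 and -0.086 without OGFRL1 1.

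Set against Krt8 within each array, Krt18 was higher in OGFRL1 livers. With 1420647_a_at as the Krt8 measure, the log2 difference between Krt18 and Krt8 signals was 0.11 and 0.18 on OGFRL1 arrays and -0.32 and -0.18 on EGFP arrays. The groups did not overlap, and they differed by 0.40. With 1435989_x_at and 1423691_x_at the groups differed by 0.36 and 0.35 and did not overlap either. All of these comparisons use the same Krt18 probe set and probe sets of the same Krt8 gene, so they are not separate observations. A difference within an array shows unequal change of the probe sets, not that one of them stayed level. An exact 2-sided permutation test gave p = 0.333 for each, the smallest that 2 arrays against 2 can give.

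**Figure D3:**
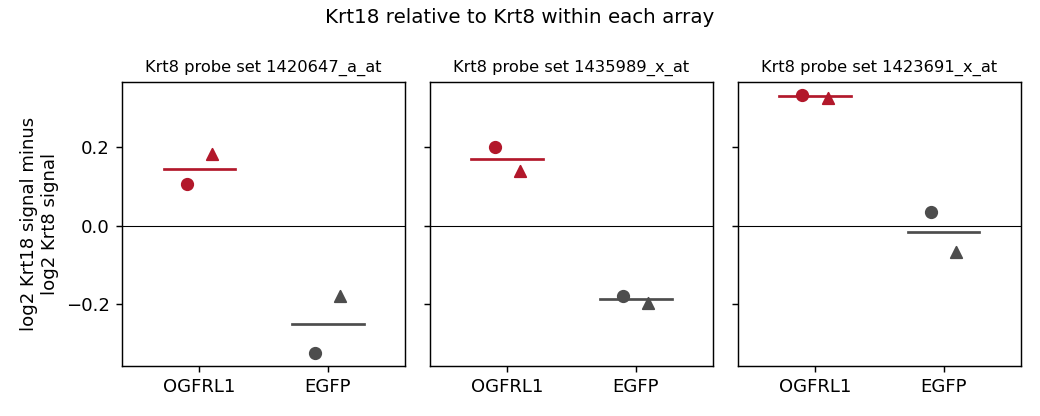
Log2 Krt18 signal minus log2 Krt8 signal within each array, for each of the 3 Krt8 probe sets, on OGFRL1 (red) and EGFP (grey) arrays, with circles for array 1, triangles for array 2 and bars for group means. The OGFRL1 arrays lie between 0.11 and 0.33 and the EGFP arrays between -0.32 and 0.034, without overlap in any panel.

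The keratins that separate ducts from hepatocytes, Krt19 and Krt7, were dim. Krt19, a type I keratin of the ducts, had signals of 27.9 and 24.3 on OGFRL1 arrays and 15.6 and 26.7 on EGFP arrays. EGFP 2 lay between the OGFRL1 arrays, and the log2 fold change was 0.30 ± 0.32 (SE), with a 95% interval of -0.48 to 1.08. Krt7, its type II counterpart, had 13.8 and 15.5 on OGFRL1 arrays and 3.80 and 17.1 on EGFP arrays. The EGFP values stood on either side of both OGFRL1 values, so its log2 fold change of 0.56 ± 0.54 (SE, 95% interval -0.74 to 1.87) rested on EGFP 1. Without that array Krt7 had -0.19 and Krt19 -0.030, and without EGFP 2 they had 1.31 and 0.63.

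Krt23, another type I keratin, had signals of 13.2 and 6.50 on OGFRL1 arrays and 12.1 and 5.40 on EGFP arrays. Its mean fell under the minimum signal and it was not tested. The arrays of each group differed from one another more than the group means did, 9.86 ± 4.75 in OGFRL1 livers and 8.76 ± 4.75 in EGFP livers. Krt7, with a mean of 14.6 in OGFRL1 livers and 10.5 in EGFP livers, was the marker just above the minimum, and Krt23 the marker just below it.

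Epcam encodes the epithelial cell adhesion molecule, a surface protein of cholangiocytes and progenitors that mature hepatocytes lack. Its probe set 1416579_a_at had signals of 31.4 and 32.8 on OGFRL1 arrays and 37.1 and 38.3 on EGFP arrays. This was the only marker with both OGFRL1 arrays below both EGFP arrays, at means of 32.1 ± 1.0 in OGFRL1 livers and 37.7 ± 0.8 in EGFP livers. The log2 fold change was -0.21 ± 0.22 (SE), with a 95% interval of -0.75 to 0.33. The fit draws each error toward that of other genes, so the SE was larger than these replicates show, also without the intensity trend (0.15). Probe set 1447899_x_at had 40.1 and 21.5 on OGFRL1 arrays and 31.4 and 32.7 on EGFP arrays, with overlapping groups and a log2 fold change of -0.11 ± 0.32.

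Sox9 encodes a transcription factor of duct development that also marks hepatocytes taking on duct features. Its brightest probe set, 1451538_at, had signals of 28.8 and 36.8 on OGFRL1 arrays and 50.9 and 25.9 on EGFP arrays. Probe set 1424950_at had 26.9 and 25.9 on OGFRL1 arrays and 22.4 and 18.6 on EGFP arrays. The probe sets disagreed in direction, with log2 fold changes of -0.15 ± 0.34 (SE, groups overlapping) for 1451538_at and 0.32 ± 0.26 (OGFRL1 arrays above) for 1424950_at. The third, 1433889_at, was under the minimum signal, at 3.29 and 5.29 on OGFRL1 arrays and 1.75 and 1.70 on EGFP arrays. As the mean over its 3 probe sets Sox9 had 0.24, so the sign of its change was not settled by these arrays.

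Of the 14 probe sets above the minimum signal, 6 had both OGFRL1 arrays above both EGFP arrays, beside 25.9% of all probe sets tested, and 1 had them below, beside 20.0%. Counted by the brightest probe set of each gene, 3 of 8 markers were above (27.0% of all genes) and 1 of 8 below (20.5%). Those above were Prom1, Cd24a and Krt18, and the marker below was Epcam. The 3 Cd24a probe sets share a transcript and are not separate observations. The EGFP arrays differed from each other by more than the OGFRL1 arrays did in Prom1, Krt8 and Krt18. By brightest probe set, array 1 over array 2 was 1.41 for OGFRL1 and 2.07 for EGFP in Prom1. It was 1.23 for OGFRL1 and 1.52 for EGFP in Krt8, and 1.17 for OGFRL1 and 1.37 for EGFP in Krt18. The reverse held in other probe sets, among them Epcam 1447899_x_at (1.87 for OGFRL1 and 0.96 for EGFP) and Cd24a 1437502_x_at (1.80 for OGFRL1 and 0.66 for EGFP).

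**Figure D4:**
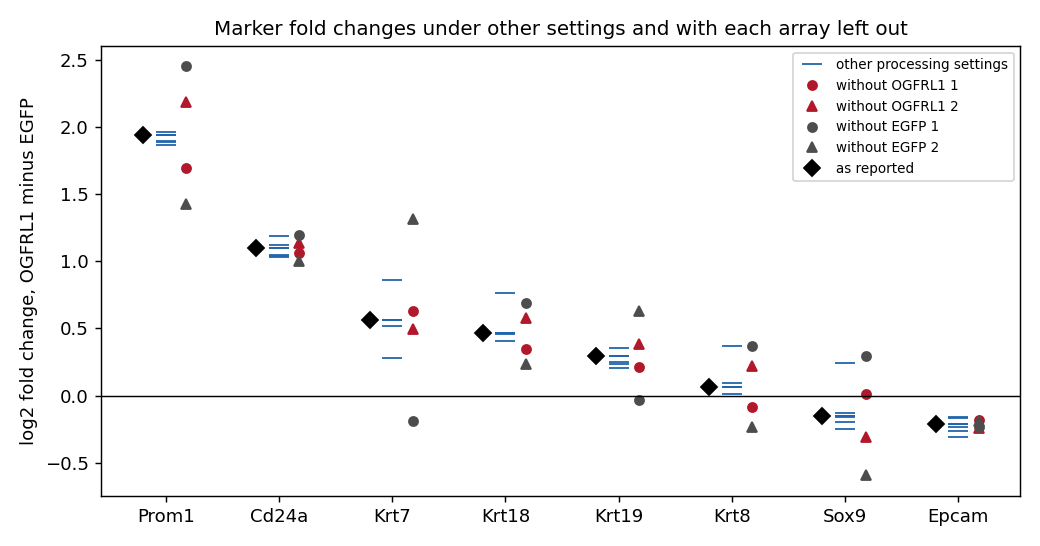
Log2 fold change, OGFRL1 minus EGFP, of the 8 tested markers as reported (diamonds), under other processing settings (blue dashes) and with 1 array left out (circles and triangles). Prom1 and Cd24a stay above 1.003 throughout, Krt18 between 0.24 and 0.76 and Epcam below 0, while Krt7, Krt19, Krt8 and Sox9 fall on both sides of 0.

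Other genes of the bile duct epithelium also gave no call. From a list of 25 duct genes, 20 had a named probe set and 17 were tested. The count past the threshold was 0 of 17 in either direction, beside 0.511% of all genes. At that share a list this short would seldom hold a call. Of the 17, 13 were above 0, beside 55.6% of all genes, and the median log2 fold change was 0.27. The same shares apply to the lists that follow. Bicc1, an RNA-binding protein whose loss gives cystic ducts and kidneys, had signals of 230.2 and 209 on OGFRL1 arrays and 107 and 111 on EGFP arrays, a log2 fold change of 0.98 ± 0.15 (limma adjusted p = 0.0554). Cdh1, the epithelial cadherin, had 737 and 591 on OGFRL1 arrays and 332 and 371 on EGFP arrays (0.91 ± 0.16, adjusted p = 0.0707).

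The adhesion genes next in the list went the same way without passing. Itga6, a chain of laminin-binding integrins, had 0.90 ± 0.20, and Alcam, an adhesion molecule of ducts and other cells, had 0.60 ± 0.14. Muc1, an apical mucin chosen after its values were seen, had signals of 8.95 and 3.39 on OGFRL1 arrays and 24.9 and 18.2 on EGFP arrays. It reached the minimum signal through the EGFP arrays alone. The chloride channel Cftr and the secretin receptor Sctr, known from large ducts, were under the minimum signal.

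Notch signalling specifies bile ducts in development and acts upstream of Sox9. Of 14 tested genes of a Notch list of 15, 0 passed, beside 0.511% of all genes. Of the 14, 13 were above 0, beside 55.6% of all genes, and the median log2 fold change was 0.14. The ligand Dll1 had 0.52 ± 0.19, the receptor Notch2 0.41 ± 0.15, the coactivator Maml1 0.28 ± 0.17 and the ligand Jag1, which drives duct formation, 0.29 ± 0.29. Genes for receptors and proteases linked to osteopontin, the product of Spp1, had a median of 0.35 with 0 of 10 past the threshold and 8 above 0. Among them Thbd (thrombomodulin), which binds thrombin, had 0.74 ± 0.19, the integrin chains Itgav and Itgb5 0.50 ± 0.14 and 0.30 ± 0.13, and Mmp7 0.55 ± 0.31. Mmp9, which is counted among the 8, had an EGFP mean of 11.1, under the minimum signal.

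**Figure D5:**
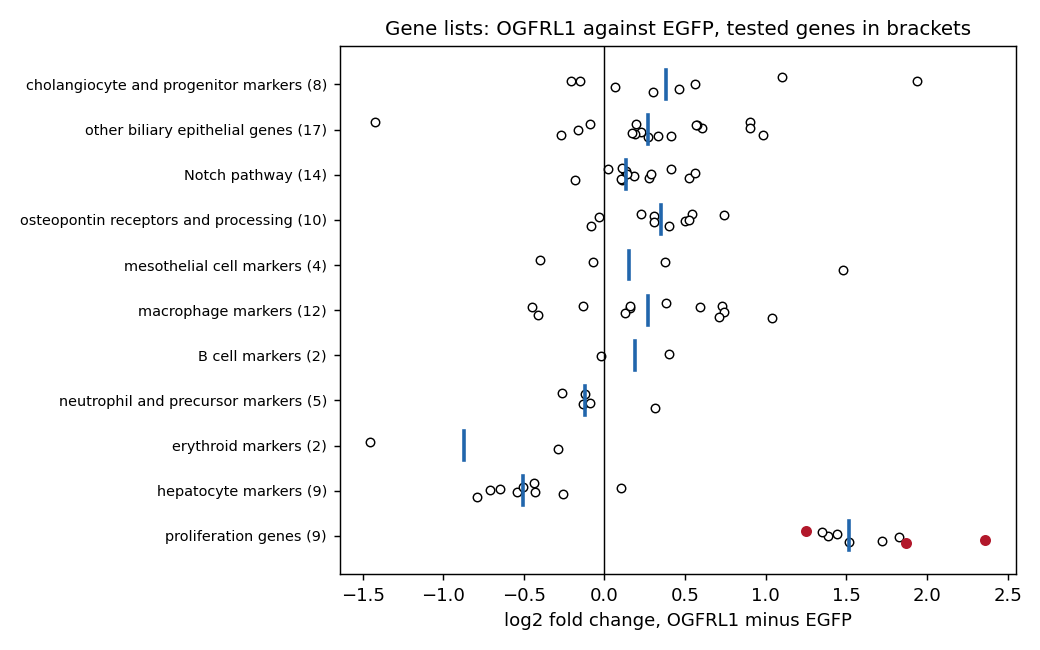
Log2 fold change, OGFRL1 minus EGFP, of the tested genes of each list (points, red where the adjusted p was under 0.05) with the list median (blue bar). The 8 markers have a median of 0.38, near the osteopontin list at 0.35 and the macrophage and other duct lists at 0.27 each. The erythroid markers (2 tested) lie at -0.87, the hepatocyte markers at -0.51 and the proliferation genes at 1.51. Only proliferation genes hold points past the threshold.

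Several of the markers are made by other cells of the tissue, whose own markers are given here. Mesothelial cells of the liver surface carry Krt7, Krt8, Krt18 and Krt19. Of 7 mesothelial markers 4 were tested and 0 passed. Gpm6a had signals of 23.8 and 44.9 on OGFRL1 arrays and 6.82 and 12.9 on EGFP arrays (1.48 ± 0.41), and its EGFP mean, 9.87 ± 4.32, was under the minimum signal. Lrrn4, with an EGFP mean of 11.3 that was also under it, was at 0.38 ± 0.35, Wt1 at -0.073 ± 0.36 and Upk1b at -0.40 ± 0.34. Their summed signal over all 7 was 82.3 and 159.6 on OGFRL1 arrays and 68.0 and 67.1 on EGFP arrays, and Msln, Upk3b and Rspo1 were under the minimum. Their part in the keratin values was not tested.

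Cd24a is shared with blood cells. Of 6 matched B cell markers 2 were tested and 0 passed, with summed signals of 68.9 and 92.2 on OGFRL1 arrays and 91.0 and 61.3 on EGFP arrays. Cd22 had 0.40 ± 0.39 and Cd79b -0.019 ± 0.34, and Cd79a, Ms4a1, Blk and Pax5 were under the minimum. Neutrophil markers (5 tested, 0 passed, median -0.12) summed to 334 and 474 on OGFRL1 arrays and 712 and 254 on EGFP arrays. Among these Mpo had 0.31 ± 0.36, Elane -0.26 ± 0.41, S100a9 -0.13 ± 0.42 and Ngp -0.087 ± 0.34, with Ltf and Camp under the minimum.

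Erythroid markers had lower summed signals in OGFRL1 livers, and most of each sum was Alas2. They summed to 159.0 and 121 on OGFRL1 arrays and 281 and 419 on EGFP arrays, with 0 of 2 tested genes past the threshold. Alas2, the first enzyme of heme synthesis in red cells, had signals of 124 and 96.0 on OGFRL1 arrays and 247 and 375 on EGFP arrays. Its log2 fold change was -1.45 ± 0.24 (limma adjusted p = 0.0637). Slc4a1, whose groups overlapped, had -0.29 ± 0.42, while Klf1, Epb42, Hemgn and Rhd were under the minimum. The part of these cells in the Cd24a values was not tested.

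Macrophage markers varied in summed signal within groups more than between them. They summed to 8258 and 12483 on OGFRL1 arrays and 13581 and 6207 on EGFP arrays. Of 12 tested genes 0 passed (0.511% of all genes). Of the 12, 9 were above 0 (55.6% of all genes) and 3 below 0, with a median of 0.27. The range was -0.45 (Clec4f, a marker of Kupffer cells, chosen after its value was seen) to 1.04 (Trem2). Cd9 had 0.73 ± 0.17, Trem2 1.04 ± 0.30 (SE), Gpnmb 0.59 ± 0.18 and Mmp12 0.74 ± 0.24. Of the pancreatic acinar markers, Ctrb1, Cpa1 and Cel were under the minimum, and Prss2, the gene tested, had 0.47 ± 0.37, not past the threshold.

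Hepatocyte genes had mostly negative log2 fold changes and proliferation genes positive ones. Of 9 hepatocyte genes 0 passed and 8 were below 0, with a median of -0.51 and summed signals of 53265 and 57972 on OGFRL1 arrays and 94518 and 69479 on EGFP arrays. Cyp2e1 had -0.79 ± 0.15, Hnf4a -0.55 ± 0.15, Alb -0.71 ± 0.26 and Apoa1 -0.43 ± 0.16. Most of the hepatocyte genes are bright, and genes within 2-fold of the bright Krt8 signal also had a negative median, -0.30. The part of brightness in the hepatocyte values was not tested. The 9 proliferation genes tested had a median of 1.51 and sums of 3595 and 4320.2 on OGFRL1 arrays and 1536 and 1039 on EGFP arrays. All 9 were above 0, beside 55.6% of all genes, and 3 passed the threshold, beside 0.511% of all genes. Those 3 were Rrm2 (1.87 ± 0.14), Birc5 (2.36 ± 0.21) and Mcm5 (1.25 ± 0.17), and Cdk1 had 1.44 ± 0.23. The part of cell mixture or of cycling cells in the Prom1 and Cd24a values was not tested.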

How the data were processed

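Total RNA (100 ng per array) was labelled with biotin and hybridised to Affymetrix arrays, per the labels' protocols. The authors deposited signal intensities made with MAS5, per the submitters' processing notes, and the values are linear. The MAS5 version, the scanner and the detection calls are not given in the sources used here. The table held 45101 probe sets. The platform annotation gave 1 gene symbol to 34945 of them, several to 932 and none to 9160, while 64 were controls. Probe sets without exactly 1 symbol were left out.

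Signals were log2-transformed after adding 3.51, the 25th percentile of all values, with no further normalization, so fold changes of dim genes are understated. Genes, each by its brightest probe set, were kept at a mean signal of at least 11.6. This left 11942 genes and, in a separate fit, 20238 probe sets. OGFRL1 minus EGFP was fitted in R 4.3.3 with limma 3.58.1 (lmFit, eBayes with intensity trend, 2-sided, Benjamini-Hochberg, threshold 0.05), with 2 residual and 4.48 prior degrees of freedom. The pipeline was tested on simulated data. The number of arrays limits the precision.

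The members and gene lists were chosen with earlier results of these data known. All members are named with every probe set. Of each other list up to 4 genes are named with fold changes by rule, first those past the threshold, then those largest in absolute moderated t. Outside the rule, Muc1 and Clec4f were chosen after their values were seen. Mmp9 is named for its EGFP mean, and list genes under the minimum signal are named without values. Alternatives were quantile normalization, median scaling, 4 times the pseudocount, a floor, no filter, a stricter filter (mean signal at least 76.6), averaging a gene's probe sets, eBayes without a trend, each array left out, and a block for the replicate number.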

Additional observations from a re-analysis of the deposited data

How the results depend on the processing

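The count of markers past the threshold, 0 of 8, became 1 (Cd24a) with median scaling and with 4 times the pseudocount, 1 (Prom1, limma adjusted p = 0.019) with the replicate number as a block, and 0 to 3 with an array left out (3 without EGFP 1, 2 without EGFP 2). It stayed 0 with quantile normalization, a floor, either change of the filter, the mean over probe sets and no intensity trend. The median log2 fold change of the markers, 0.38, was 0.24 with 4 times the pseudocount, 0.78 under the stricter filter, where 4 markers were left, and 0.28 to 0.44 with an array left out. Genes past the threshold, 61, numbered 4 with quantile normalization, 94 with 4 times the pseudocount, 0 without a filter, 2 with a stricter filter, 13 with the mean over probe sets, 0 without an intensity trend, and 0 to 856 with an array left out. Probe sets past the threshold, 68, numbered 12 with quantile normalization, 116 with 4 times the pseudocount, 0 with either change of the filter or no intensity trend, and 0 to 1105 with an array left out. With an array left out, the log2 fold change ran from -0.19 to 1.31 for Krt7 and from -0.030 to 0.63 for Krt19, both negative without EGFP 1. It ran from -0.23 to 0.37 for Krt8, which was negative without EGFP 2 and without OGFRL1 1 (-0.086), from -0.11 to 0.32 for its probe set 1435989_x_at and from -0.061 to 0.29 for 1423691_x_at, both negative without EGFP 2. It ran from -0.59 to 0.29 for Sox9, which was positive without EGFP 1, without OGFRL1 1 (0.010) and when its probe sets were averaged (0.24), and from -0.51 to 0.30 for Epcam probe set 1447899_x_at, which was positive without OGFRL1 2. The cause was not tested. The counts with an array left out come from fits that do not measure the spread of that array's group. No conclusion is drawn from those counts.

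Arrays with the same number deviated from their group means with a correlation of -0.28 across genes, and arrays with crossed numbers with 0.28. With 2 arrays per group these values mirror each other by construction. They cannot decide whether the numbers pair the arrays. The block gave 59 genes and 60 probe sets past the threshold. Crossing the numbers, chosen after seeing the data, gave 934 genes, 1274 probe sets and 2 markers. With 2 arrays per group and no detection calls used here, the values of the dim probe sets of Krt7, Krt19, Krt23, Epcam and Sox9 are uncertain. So is the size of the Prom1 difference, whose SE of 0.34 was near those of Krt19 (0.32) and Sox9 (0.34).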
